A study of Mus musculus with 9 samples.

Results

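The genes described here code for small nuclear RNAs (snRNA), small nucleolar RNAs (snoRNA) and small Cajal body-specific RNAs (scaRNA). They were taken by gene type from the GENCODE vM21 mouse annotation, joined by Ensembl identifier, and kept where the mean FPKM over all 9 liver libraries was at least 1. FPKM scales the sequenced fragments of a gene to its length and to the size of the library. This gave 89 of the 2941 such genes in the table, namely 41 snoRNA, 40 snRNA and 8 scaRNA genes, among 55335 genes in all. The libraries came from livers of male chow-fed B6D2F2 mice aged 20 weeks and fasted for 4 h, with 3 mice in each group. The NC mice (numbers 1, 5 and 6) were conceived and carried naturally. The IVF mice (numbers 2, 3 and 4) came from fresh transfer of embryos fertilized in vitro, and the FET mice (numbers 2, 3 and 4) from such embryos that had been frozen and thawed before transfer. All embryos of the IVF and FET groups, but none of the NC group, were carried by pseudopregnant ICR recipients. The study's methods also describe hormone-induced ovulation of the egg donors and embryo culture for the IVF and FET groups only. Fertilization in vitro, these steps and the recipient therefore cannot be told apart. The FET embryos were cultured again after thawing, and freezing cannot be told apart from this further culture. The diet, the sex and the recipients are those of the study's methods, and the labels do not say whether mice of a group shared a litter.

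The RNAs of these genes work as parts of ribonucleoprotein particles in the nucleus. The U1, U2, U4, U5 and U6 snRNAs form the core of the spliceosome, in which U1 pairs with the 5′ splice site and U2 with the branch site of the intron, while U6 takes part in the catalytic centre. The snoRNAs with C and D boxes mostly guide 2′-O-methylation of ribosomal RNA, and those with H and ACA boxes guide its pseudouridylation. U3 and U8 are C/D snoRNAs that act in the cleavage of the ribosomal RNA precursor. The scaRNAs guide the same modifications on the spliceosomal snRNAs in Cajal bodies. In mammals many snoRNAs are cut out of the introns of host genes, whereas U1, U2 and U3 are transcribed from repeated genes of their own, and U6 by RNA polymerase III. Most of these RNAs are short and carry no poly(A) tail. The study's methods do not say whether RNA was selected by its poly(A) tail or by size. Whether a low FPKM here reflects a low level in the liver was not tested.

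Most of the 89 genes are known only by a predicted-gene number, with 72 of them carrying a Gm symbol. Their lengths ran from 65 to 414 bases with a median of 135. For 42 genes the annotation held at least 1 other gene of the same class that was 95% identical or more, and 18 had an exactly identical gene. The level of such a gene depends on how the mapping shared its fragments among the copies, which is not given in the sources used here, so that levels of single copies are uncertain. Copies were placed in a family where the bases they share in alignment with its reference gene make up at least 90% of the whole length of that gene, so that shorter or partial copies of high identity count among the other genes. This gave 13 U1, 6 U2, 6 U6 and 5 U3 genes, beside 15 other snRNA, 36 other snoRNA and 8 scaRNA genes.

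The sequences of the genes on which the results turn are shown to let the near-identity within families be seen. All were read by Ensembl identifier from the GENCODE vM21 transcripts, with positions on GRCm38. The authors' genome build is not given in the sources used here. Rnu1a1 lies at chr11:87422867-87423030 on the plus strand, in an intron of Tex14. Capitals mark the bases ACTTACCTG, which pair with the 5′ splice site, and the Sm-protein binding site ATTTGTGG. In Gm22513, the U1 copy with the highest mean level here, at chr12:54696782-54696945 on the plus strand outside any other gene of that strand, the capital marks the substitution T60C, counted from 1 at the 5′ end with the base of Rnu1a1 first.
Rnu1a1: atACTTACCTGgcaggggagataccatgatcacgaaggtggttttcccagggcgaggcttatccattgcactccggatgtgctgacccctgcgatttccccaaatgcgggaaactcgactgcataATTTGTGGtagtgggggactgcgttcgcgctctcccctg
Gm22513: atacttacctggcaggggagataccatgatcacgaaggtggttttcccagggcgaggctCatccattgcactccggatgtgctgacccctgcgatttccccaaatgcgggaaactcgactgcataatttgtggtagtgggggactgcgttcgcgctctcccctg

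Rnu2-10 is the reference copy of U2, at chr11:101658238-101658428 on the plus strand outside any other gene of that strand, with capitals on GTAGTA, which pairs with the branch site, and on the Sm site ATTTTTGG.
Rnu2-10: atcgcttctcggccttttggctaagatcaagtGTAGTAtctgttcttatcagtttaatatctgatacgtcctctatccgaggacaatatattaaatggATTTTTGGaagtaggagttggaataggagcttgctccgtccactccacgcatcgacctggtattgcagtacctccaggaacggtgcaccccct

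Rnu3b3 is a U3 gene, at chr11:87448627-87448842 on the plus strand in an intron of Tex14. Snord104 is a C/D snoRNA at chr11:106500993-106501062 on the plus strand, outside any gene on its own strand, and had the highest mean level of the 89 genes. Capitals in both mark the first TGATGA, the C box motif, and the last CTGA, the D box motif. Snora31 is an H/ACA snoRNA at chr14:75847905-75848034 on the plus strand, in an intron of Tpt1, and capitals mark its ACA box.
Rnu3b3: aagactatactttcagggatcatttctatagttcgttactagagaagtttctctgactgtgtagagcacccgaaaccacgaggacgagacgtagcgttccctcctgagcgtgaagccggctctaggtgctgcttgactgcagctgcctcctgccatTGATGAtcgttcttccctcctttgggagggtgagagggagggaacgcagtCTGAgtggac
Snord104: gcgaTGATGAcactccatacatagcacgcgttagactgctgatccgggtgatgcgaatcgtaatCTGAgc
Snora31: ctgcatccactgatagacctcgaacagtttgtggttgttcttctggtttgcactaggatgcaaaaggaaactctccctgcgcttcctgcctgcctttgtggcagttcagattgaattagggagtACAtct

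Gm23386 and Gm22442 are scaRNA genes of 144 bases that differ at 8 positions, an identity of 94.4%. Gm23386 lies at chr11:19693155-19693298 on the minus strand outside any gene on its own strand, and Gm22442 at chr11:69350518-69350661 on the minus strand in an intron of Chd3. Capitals mark the ACA that ends 3 bases before the 3′ end.
Gm23386: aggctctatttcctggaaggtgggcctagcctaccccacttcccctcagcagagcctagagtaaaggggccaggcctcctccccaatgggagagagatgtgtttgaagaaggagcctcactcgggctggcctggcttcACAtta
Gm22442: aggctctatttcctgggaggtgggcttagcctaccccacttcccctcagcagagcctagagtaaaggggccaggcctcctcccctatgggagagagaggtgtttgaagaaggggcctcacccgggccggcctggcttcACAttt

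The motifs were searched in these letters on the strand of the RNA only. ACTTACCTG occurred in 14 of the 40 snRNA genes (35%), against 55 of all 1383 annotated snRNA genes in the table (3.98%). TGATGA occurred in 16 of the 41 snoRNA genes (39%) and in 393 of 1507 (26.1%). An ACA 3 bases before the end occurred in 13 of the 41 (31.7%) and in 276 of the 1507 (18.3%), and in 4 of the 8 scaRNA genes (50%) against 25 of 51 (49%).

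Several of the genes lie in clusters. Of the 13 U1 genes, 7 lay within chr12:54696782-54738622. The genes Rnu3b1 to Rnu3b4 and the U1 genes Rnu1a1 and Gm22068 lay together in introns of Tex14, within chr11:87422867-87471583. The U2 genes formed a group of 3 within chr11:101627366-101658428 and another of 3 within chr1:72236946-72255198. In all, 36 genes lay in an intron and 11 in an exon of a gene on the same strand, and 42 in none.

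The libraries differed in depth and in composition, with the FET libraries apart from the others in depth and NC mice 5 and 6 apart in both. The number of mapped fragments, inferred from the regular spacing of low FPKM values, in which each fragment adds a fixed amount, was 6570000 to 13250000 in the NC libraries, 3850000 to 8350000 in the IVF libraries and 2000000 to 2910000 in the FET libraries, so that every FET library was smaller than every other. A single fragment on a gene of 100 bases was therefore worth 0.755 FPKM in NC mouse 6 and 5.0 FPKM in FET mouse 2. The share of the summed FPKM in 3 ribosomal entries (AY036118, Gm23935 and CT010467.1) was 26.5%, 3.49% and 5.03% in NC mice 1, 5 and 6, against 18.1% to 61.9% in the IVF and 29.0% to 41.8% in the FET libraries. NC mice 5 and 6 thus stood apart from NC mouse 1 on this measure. A further number in the sample labels also set them apart, since it ran from 67 to 76 in the other 7 mice and lay outside this run in NC mice 5 and 6. What the number stands for is not given in the sources used here, and every comparison with NC rests on these mice for 2 of its 3 NC values. The log2(FPKM + 1) values of NC mice 5 and 6 correlated across genes at 0.97, while both correlated with NC mouse 1 at 0.84 to 0.85. Hepatocyte markers were found in every library, with albumin (Alb) between 1324 and 20585 FPKM and the lowest single value of the list at 7.60 for Cps1 in FET mouse 4. Of the 6 markers, 5 had a negative difference in FET against NC, with a median log2 fold change of -1.07, where it was -0.46 for all genes, though none passed the limma test, and Cps1 had 21.2, 53.3 and 47.9 FPKM in the NC mice and 7.60 to 15.7 in the FET mice. The summed level of the erythroid markers ran from 78.0 to 850 FPKM, that of the Kupffer cell markers from 4.07 to 32.1 with 78.3 in FET mouse 2, and that of the lymphocyte markers to at most 1.71. In bulk liver, fewer cells of a type and less RNA per cell cannot be told apart. The part of depth, ribosomal content and hepatocyte marker levels in the results below was not tested.

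Few fragments stood behind most of the 89 genes. The estimated number over all 9 mice was under 10 for 41 genes, 10 to under 50 for 39 and at least 50 for 9, with a median of 11.3, from 2.73 for Gm22459 to 158 for the scaRNA gene Gm22009. Only 12 genes had an FPKM above 0 in all 9 mice, while 36 had one in 1 to 3 mice. In 55 genes a single mouse held over 50% of the summed FPKM. FET mouse 3 was the highest mouse for 28 of the 89 genes. Fragment numbers can be fractional where a fragment was shared among copies or lay partly outside the gene, and the numbers cover counting error only.

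**Figure D1:**
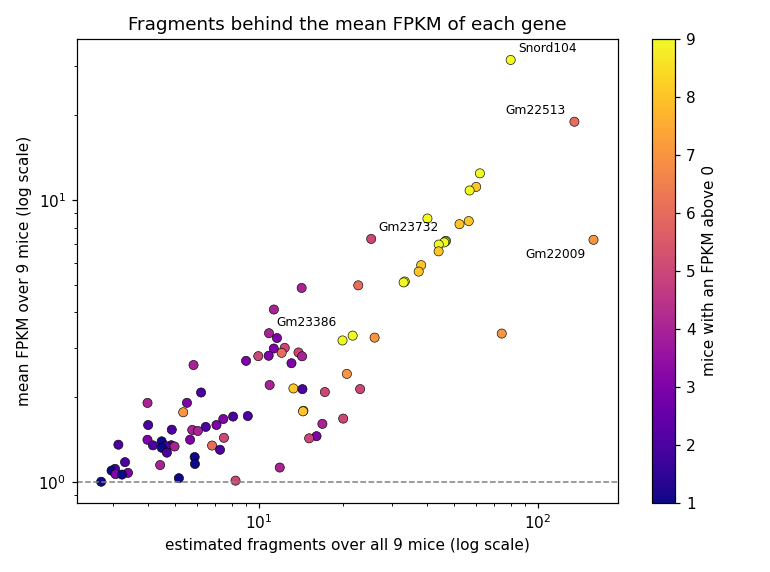
Estimated fragments over all 9 mice (horizontal, log scale) against the mean FPKM over the 9 mice (vertical, log scale) for each of the 89 genes, coloured by the number of mice with an FPKM above 0. The dashed line marks the mean of 1 used to choose the genes, and 41 genes lie under 10 fragments.

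The rule that chose the genes let a gene pass on a few fragments in the smallest libraries. Of the 89 genes, 63 had their highest group mean in FET, 17 in IVF and 9 in NC. Without the FET libraries 36 genes would have had a mean under 1, against 8 without the IVF libraries and 2 without the NC libraries. There were 33 genes at 0 in all NC mice, 10 in all IVF mice and 5 in all FET mice. The mean was at least 1 within each of the 3 groups for 29 genes. Just inside the threshold were Gm25939 at 1.035, Gm25789 at 1.01 and Gm22459 at 1.01, and just outside were Gm22762 at 0.998, Gm24592 at 0.987 and Gm22113 at 0.975. The directions over the 89 genes are accordingly given as a description and support nothing.

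Without the threshold, 522 of the 2941 genes were detected in some mouse. The number above 0 was 67, 174 and 192 in NC mice 1, 5 and 6. It was 251 in IVF mouse 2 and 132 in IVF mouse 3, with fewer in IVF mouse 4, and 36, 123 and 80 in FET mice 2, 3 and 4. The number was lowest in FET mouse 2, the smallest library, and highest in IVF mouse 2. Their summed FPKM was lower in NC mice 5 and 6, at 112 and 107, than in any other mouse, where it lay between 238 and 714.

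**Figure D2:**
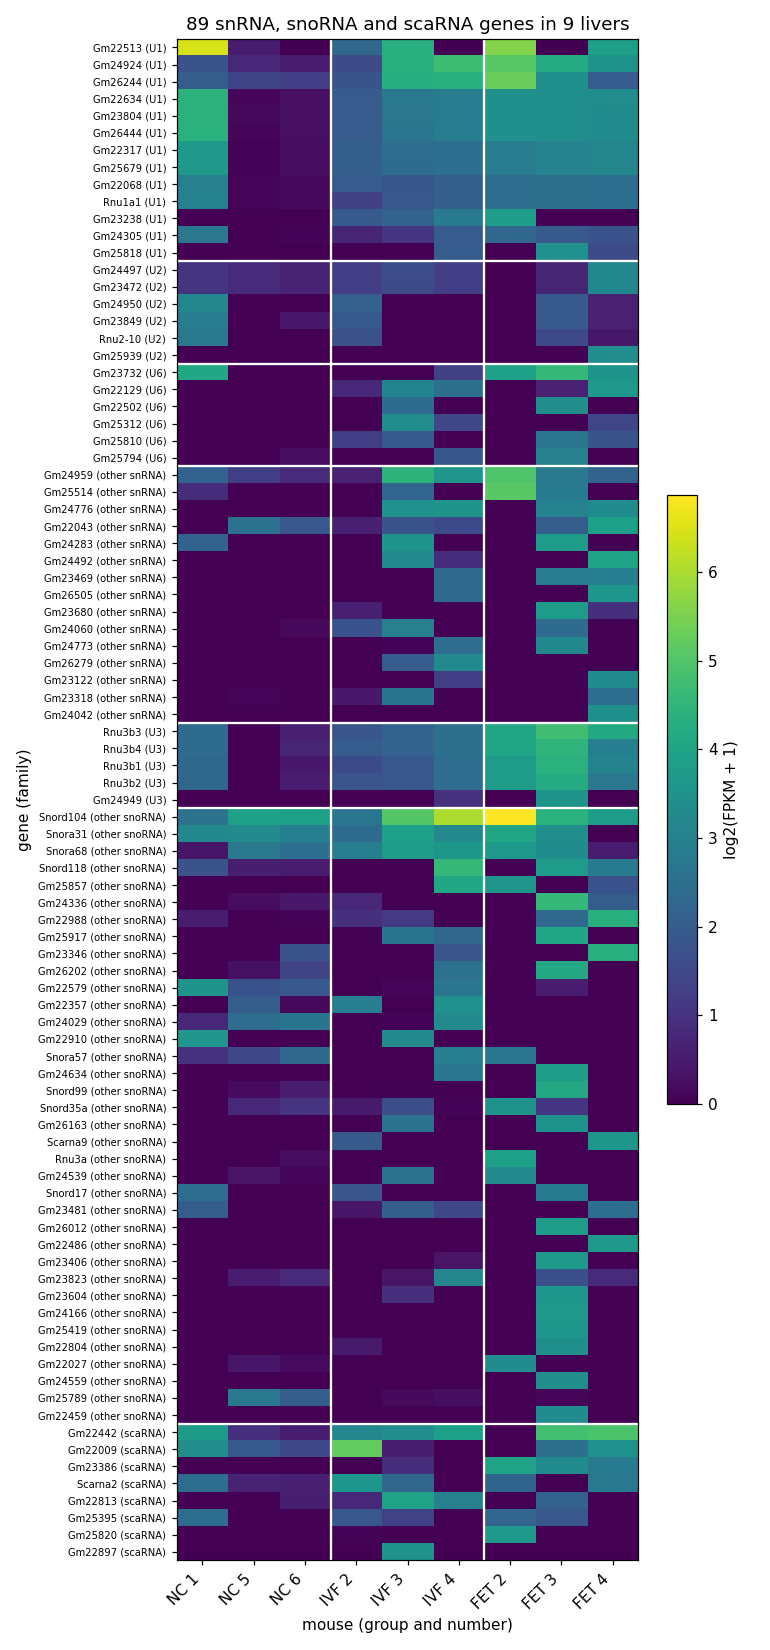
Log2(FPKM + 1) of the 89 genes (rows, by family and falling mean) in the 9 mice (columns, by group), with white lines between families and groups. The U1 rows are dark in NC mice 5 and 6, the 4 Rnu3b rows are brightest in the 3 FET mice, and many rows are above 0 in only 1 to 3 mice.

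The U1 genes had the highest summed levels of the U1, U2 and U6 families, and the levels were not ordered by group. Over all 33 annotated U1 copies the summed FPKM was 206, 3.33 and 3.13 in NC mice 1, 5 and 6. It was 35.0, 94.6 and 92.2 in IVF mice 2, 3 and 4, and 187, 99.5 and 83.9 in FET mice 2, 3 and 4. NC mouse 1 was thus the highest of all mice and NC mice 5 and 6 the lowest, and the groups overlapped, as they did after median-ratio scaling and after rescaling to nuclear protein-coding genes. The 7 genes with the sequence of Rnu1a1, that gene included, moved alike across mice. For Rnu1a1 the FPKM was 7.13, 0.0754 and 0.123 in NC mice 1, 5 and 6, then 1.47, 2.64 and 3.24 in the IVF mice, and 4.51, 4.81 and 4.64 in the FET mice. The 3 FET values lay close together and above all IVF values, but below NC mouse 1. Gm22634, another identical copy, had 20.3, 0.0754 and 0.210 in the NC mice, 2.94, 5.81 and 6.49 in the IVF mice and 9.84, 9.62 and 9.29 in the FET mice. Gm23804, Gm26444, Gm22317, Gm25679 and Gm22068, the other identical copies, likewise had NC mouse 1 highest, at 7.0 to 20.2, then the FET mice at 4.51 to 9.84 above all IVF mice, and NC mice 5 and 6 lowest.

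Copies of U1 that differ by a base or more did not all follow the identical copies. Gm24305, with the substitution A26G, came close to them. It had 5.62 FPKM in NC mouse 1, its highest value, and 0 and 0.0512 in NC mice 5 and 6, its lowest. Its FET values were 4.03, 2.80 and 2.31, with IVF mouse 4 among them at 2.89 and IVF mice 2 and 3 below. The copies described next had patterns of their own. Gm22513 had 86.8 FPKM in NC mouse 1, its highest value, against 0.434 and 0 in NC mice 5 and 6. It had 3.95, 18.6 and 0 in the IVF mice and 47.2, 0 and 13.7 in the FET mice, so that all groups overlapped. Gm24924, which lies in an intron of Ss18 on chromosome 18, had 2.39, 0.729 and 0.452 in the NC mice, 1.96, 19.6 and 25.5 in the IVF mice and 33.0, 17.7 and 10.6 in the FET mice. Every FET value of Gm24924 was above every NC value, and IVF mouse 2 lay among the NC values. Gm26244, in an intron of Rock1, had 3.05, 1.67 and 1.36 in the NC mice, 2.43, 18.5 and 19.5 in the IVF mice and 38.0, 9.86 and 2.97 in the FET mice, with overlap between the groups. Gm23238 was listed at 0 in all NC mice and in FET mice 3 and 4, at 2.76, 3.43 and 5.96 in the IVF mice and at 13.0 in FET mouse 2.

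The U2 genes were low in the libraries of all groups. Their summed FPKM over all 13 copies was 28.8, 2.40 and 1.76 in the NC mice, 13.9, 4.33 and 3.67 in the IVF mice and 0, 11.1 and 27.9 in the FET mice. The group ranges overlapped in every pair. Gm24497 had 1.04, 0.780 and 0.602 FPKM in the NC mice, 1.37, 2.07 and 1.38 in the IVF mice and 0, 0.640 and 8.27 in the FET mice, with all IVF values above all NC values. The chromosome 11 copies had another order, and the largest FPKM of Rnu2-10 was 5.70 in NC mouse 1, while it was 0 in NC mice 5 and 6, in IVF mice 3 and 4 and in FET mouse 2.

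The U6 genes rested on few fragments, with 5 of the 6 under 10 over all mice. Of the 6, Gm22502 and Gm25810 had no other gene at 95% identity or more, Gm25794 had 1, and the other genes had 166 to 174. Over all 300 annotated U6 copies the summed FPKM was 23.0, 1.85 and 1.59 in the NC mice, 12.9, 31.8 and 40.9 in the IVF mice and 14.3, 48.7 and 29.5 in the FET mice. The groups overlapped. Gm23732, which had 174 other genes at 95% identity or more, was at 16.4, 0 and 0 in the NC mice, at 0, 0 and 1.45 in the IVF mice and at 14.3, 22.7 and 10.7 in the FET mice. All FET values of Gm23732 lay above all IVF values and NC mouse 1 lay among them. Gm22129 was listed at 0 in all NC mice, at 0.684, 7.60 and 4.75 in the IVF mice and at 0, 0.560 and 11.6 in the FET mice.

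Among the other snRNA genes, Gm24959, in an intron of Trappc8, was the only one above 0 in all 9 mice. Its FPKM was 3.43, 1.43 and 0.805 in the NC mice, 0.556, 20.6 and 11 in the IVF mice and 30.4, 5.81 and 3.53 in the FET mice. Its FET values were all above its NC values, with FET mouse 4 only just above NC mouse 1. Over all 1037 annotated genes of this kind the summed FPKM was 13.0, 11.6 and 7.93 in the NC mice, 35.6, 141 and 62.4 in the IVF mice and 63.7, 99.5 and 114 in the FET mice. Every IVF and every FET sum was above every NC sum, also after median-ratio scaling and after rescaling to nuclear protein-coding genes. Of the snRNAs of the spliceosome and of histone mRNA processing that have a named gene, Rnu5g, Rnu7, Rnu11 and Rnu12 were listed at 0 in all 9 mice.

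The summed U3 level and the 4 identical Rnu3b genes were higher in all FET mice than in all other mice. Over the 16 annotated copies that meet the 90% rule against Rnu3b1, which leave out Rnu3a, the summed FPKM was 16.4, 0 and 2.02 in the NC mice (mean 6.15 ± 8.96, SD, n = 3), 10.2, 12.2 and 19.4 in the IVF mice (13.9 ± 4.85) and 56.2, 96.7 and 36.7 in the FET mice (63.2 ± 30.6). The FET sums did not overlap with the NC or the IVF sums as deposited, after median-ratio scaling or after rescaling to nuclear protein-coding genes, while the IVF and NC sums overlapped under all 3. The sums had been summarised with the levels known and were not tested. Rnu3b3 had 4.27, 0 and 0.526 FPKM in the NC mice, 2.52, 3.50 and 4.76 in the IVF mice and 15.3, 26.3 and 16.8 in the FET mice. Rnu3b4 had 4.30, 0 and 0.646 in the NC mice, 2.96, 3.50 and 4.77 in the IVF mice and 15.4, 20.9 and 6.85 in the FET mice. Rnu3b1 had 3.89, 0 and 0.367 in the NC mice, 1.93, 2.64 and 4.45 in the IVF mice and 12.7, 19.7 and 7.34 in the FET mice. Rnu3b2, also among the 10 highest snoRNA genes, was named after its values were seen and ran from 5.63 to 17.7 in the FET mice. In each of these 4 genes every FET value exceeded every NC and IVF value. The 4 genes have the same sequence, so that they are 1 observation of U3 rather than 4. They amounted to 7.57, 11.9 and 33.0 fragments for Rnu3b3 over the NC, IVF and FET libraries, of which the FET libraries were the smallest. Tex14, whose introns hold them, was at 0 in 8 mice and at 0.0120 FPKM in IVF mouse 2. The other U3 genes did not share this pattern. Gm24949 had 10.8 FPKM in FET mouse 3, 0.987 in IVF mouse 4 and 0 in the other mice. Rnu3a, a U3 gene on chromosome 10 that is counted here among the other snoRNA genes, was above 0 in 2 mice, at 14.0 FPKM in FET mouse 2 and at 0.169 in NC mouse 6.

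**Figure D3:**
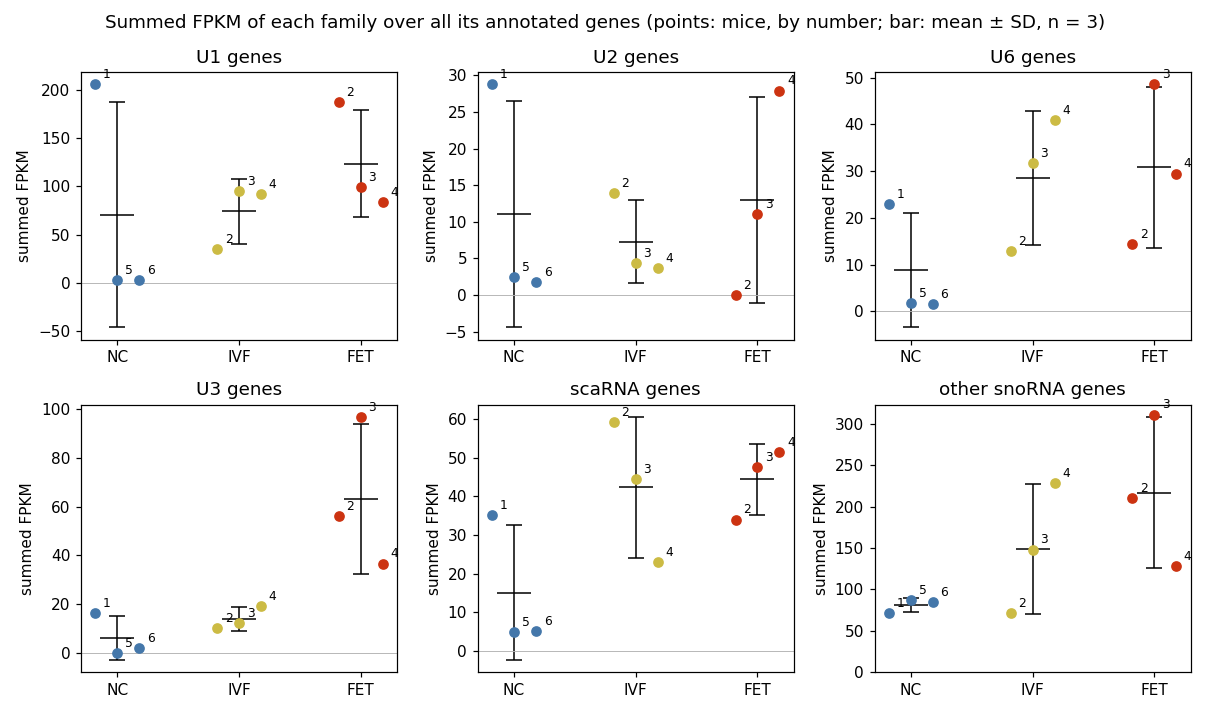
Summed FPKM over all annotated genes of 6 families (vertical, linear scale from or below 0) in the NC, IVF and FET mice, with points for mice labelled by number and bars for the mean ± SD (n = 3). In these deposited values the FET points lie above all others for U3 only, and NC mouse 1 lies far above NC mice 5 and 6 for U1, U2, U3, U6 and the scaRNAs.

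Among the C/D snoRNAs, Snord104 had the highest levels and a wide spread within groups. Its FPKM was 5.16, 14.3 and 14.0 in the NC mice, 5.45, 31.7 and 63.9 in the IVF mice and 115, 20.0 and 12.6 in the FET mice. The groups overlapped in every pair. Snord118, the gene of U8, had 2.39, 0.502 and 0.441 in the NC mice, 0, 0 and 22.9 in the IVF mice and 0, 12.6 and 6.03 in the FET mice. Snord35a, in an intron of the ribosomal protein gene Rpl13a, had its highest FPKM of 10.4 in FET mouse 2 and 0 in NC mouse 1 and FET mouse 4. Snord99, in an exon of Snhg12, was at 16.6 in FET mouse 3 and at most at 0.446 elsewhere, and Snord17, in an intron of Snx5, was above 0 in NC mouse 1, IVF mouse 2 and FET mouse 3, at 4.51, 2.54 and 6.07.

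The H/ACA snoRNAs Snora31 and Snora68 were above 0 in 8 and 9 mice. Snora31 had 8.26, 8.70 and 6.84 FPKM in the NC mice (7.93 ± 0.974), 4.30, 13.8 and 8.36 in the IVF mice (8.81 ± 4.74) and 16.1, 9.53 and 0 in the FET mice (8.55 ± 8.11). The groups overlapped, and NC mice 5 and 6 did not stand apart from NC mouse 1. Its host Tpt1 was at 197, 218 and 262 in the NC mice and between 34.6 and 316 in the others. Snora68 had 0.304, 5.73 and 4.69 in the NC mice, 6.63, 12.6 and 11.5 in the IVF mice and 11.6, 9.12 and 0.459 in the FET mice. All IVF values of Snora68 lay above all NC values. Snora57 was above 0 in all NC mice, at 0.961, 1.78 and 4.00, and in IVF mouse 4 and FET mouse 2 at 6.61 and 5.45.

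Over all 1491 annotated snoRNA genes outside the U3 family the summed FPKM was 71.8, 87.8 and 85.0 in the NC mice, 71.1, 148 and 228 in the IVF mice and 211, 311 and 129 in the FET mice. The FET sums were above all NC sums as deposited and under both rescalings. They overlapped with the IVF sums as deposited and after median-ratio scaling, and lay above them after rescaling to nuclear protein-coding genes. The IVF sums overlapped with the NC sums as deposited and lay above them under both rescalings. NC mouse 1 did not stand apart here, in contrast to its U1 sum. Of the 11 genes in exons of host genes, 7 had a positive and 4 a negative difference in FET against NC, and the following were named after their values were seen. Gm22579, in an exon of Taf1d, had 10.8, 2.29 and 2.61 FPKM in the NC mice and 0, 0.468 and 0 in the FET mice. Gm24029, in an exon of Eif4a1, which codes for a translation initiation factor, had 0.723, 4.48 and 5.30 in the NC mice and 0 in all FET mice. Gm22988, in an exon of the same host, had 0.468, 0 and 0.0379 in the NC mice and 0, 4.10 and 19.1 in the FET mice. Eif4a1 itself had 8.61, 9.66 and 14.8 in the NC mice and 4.25, 4.74 and 2.98 in the FET mice. All its FET values lay below its NC values, as they did in 17.1% of all genes tested. Reads of the host transcript and of the snoRNA cannot be separated in these genes. The adjusted p-values by limma in FET against NC were 0.12 for Gm22579, 0.22 for Gm24029 and 0.221 for Gm22988. Of these, Gm22988 reached a mean of 1 only through the FET mice, so that the values that chose it are those compared.

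The scaRNA genes differed widely from each other. Gm23386 was listed at 0 in all NC mice and in IVF mice 2 and 4, and had 0.874 FPKM in IVF mouse 3. In the FET mice it had 14.4, 8.92 and 6.18 FPKM (9.84 ± 4.21, n = 3). All FET values were thus above all other values. They amount to 10.3 fragments of 7700000 mapped in the FET libraries, against 0 of 31600000 in the NC libraries and 0.56 of 16650000 in the IVF libraries. Gm22442, its near copy, had 12.4, 0.931 and 0.426 in the NC mice, 8.13, 9.22 and 13.7 in the IVF mice and 0, 26.5 and 29.0 in the FET mice, with overlap between all groups. In FET mouse 2, where Gm23386 was highest, Gm22442 was at 0.

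The scaRNA genes with the most fragments were Gm22009 and Scarna2. Gm22009, of 343 bases in an intron of Kpna4, had 9.50, 2.68 and 1.83 FPKM in the NC mice, 35.8, 0.488 and 0 in the IVF mice and 0, 4.79 and 10.001 in the FET mice. Scarna2, of 414 bases and outside other genes, had 4.62, 0.596 and 0.524 in the NC mice, 11.2, 3.81 and 0 in the IVF mice and 3.65, 0 and 5.85 in the FET mice. Both were highest in IVF mouse 2, the library with the largest ribosomal share, and showed no separation of the groups. Gm22813, in an intron of Mpped2, had 0, 0 and 0.501 in the NC mice, 0.722, 14.4 and 6.94 in the IVF mice and 0, 3.42 and 0 in the FET mice. Gm25395, in an intron of Atg16l1, reached 4.60 in NC mouse 1, 2.62 in IVF mouse 2 and 3.71 in FET mouse 2. Gm25820 reached 12.2 in FET mouse 2 and Gm22897 10.5 in IVF mouse 3, and each was at or under 0.0409 in the other mice.

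**Figure D4:**
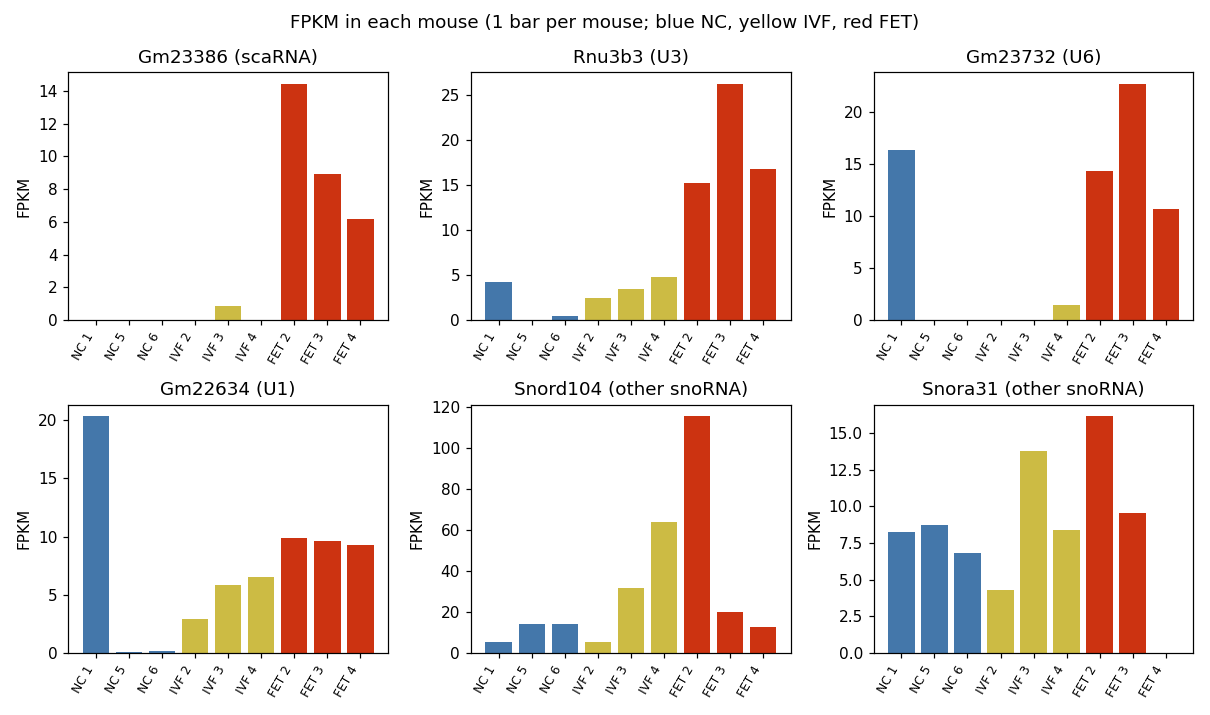
FPKM (vertical, linear scale from 0) of 6 genes in each of the 9 mice, with 1 bar per mouse and colours by group. Gm23386 and Rnu3b3 are highest in the 3 FET mice, Gm23732 is also high in NC mouse 1, Gm22634 is highest in NC mouse 1, and Snord104 and Snora31 show no order by group.

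The groups were then compared across all genes to ask how the liver RNA of FET offspring differed from that of NC and IVF offspring. The test was limma on log2(FPKM + 1) in the 6755 genes whose mean was at least 1, with adjusted p-values (Benjamini-Hochberg) under 0.05 counted as changed. The p-values measure the spread between these mice. In FET against NC, 2 of the 89 genes rose and none fell, where 0.237% of all genes tested changed. Gm23386 rose by 3.37 (SE 0.58) on the log2(FPKM + 1) scale, with an adjusted p-value of 0.00136 by limma. The size of this difference depends on the pseudocount, because the NC mice are listed at 0. Gm23386 reached a mean of 1 only through the FET mice, so that the values that chose it are those compared, and with no filter on low values its adjusted p-value was 0.434 by limma. Rnu3b3 rose by 3.32 (SE 0.74, adjusted p = 0.0260 by limma), from 1.60 ± 2.33 to 19.5 ± 5.97 FPKM (SD, n = 3). The other genes with the largest differences and no overlap missed the threshold in the same limma fit, namely Gm24924 at 3.25 (adjusted p = 0.0612), Rnu3b1 at 2.82 (adjusted p = 0.0553) and Rnu3b4 at 2.78 (adjusted p = 0.0638). The call of Rnu3b3 was lost without FET mouse 3 (adjusted p = 0.155 by limma), FET mouse 4 (0.052), NC mouse 5 (0.455) or NC mouse 6 (0.275), while Gm23386 kept its call without any 1 mouse of these groups but lost it in a fit of only these groups (adjusted p = 0.0689 by limma) and with a pseudocount of 10 (0.125). The call of Rnu3b3 was also lost under median-ratio scaling (adjusted p = 0.0529 by limma), quantile normalization (0.0718) and rescaling to nuclear protein-coding genes (0.0541), where Gm24924 passed instead, and also with both other pseudocounts, with no filter and in a fit of only these groups. With NC mouse 1 as the only NC mouse, the difference was 3.37 for Gm23386, as with all NC mice, and 1.92 for Rnu3b3. None of the 89 genes passed by limma in that fit, in which the lone mouse is assumed to vary like the mice of the other groups, and a call missed there says little about the gene.

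Counts over the 89 genes are given beside those over all genes as a description, since the rule used the FET values and fixed much of their direction. At an unadjusted p-value under 0.05 by limma, 26 of the 89 genes were higher in FET, where 1.88% of all genes were, and 3 were lower, where 10.1% were. The 26 included 10 copies of U1 and 4 of U3, which share sequence within their family and are not separate observations. Without overlap between FET and NC mice, 7 of the 89 genes were higher, where 1.98% of all genes were, and 2 were lower, where 17.1% were. Of these 7, 4 were the identical copies of U3. The median log2 fold change was 1.18 for the 89 genes and -0.46 for all genes tested. As the genes were chosen by a mean that the FET mice often carried alone, this median describes the genes chosen. By family the median was 1.69 for U1, 0.13 for U2, 1.28 for U6, 2.78 for U3, 1.15 for other snRNA, 1.14 for other snoRNA and 0.53 for scaRNA genes.

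**Figure D5:**
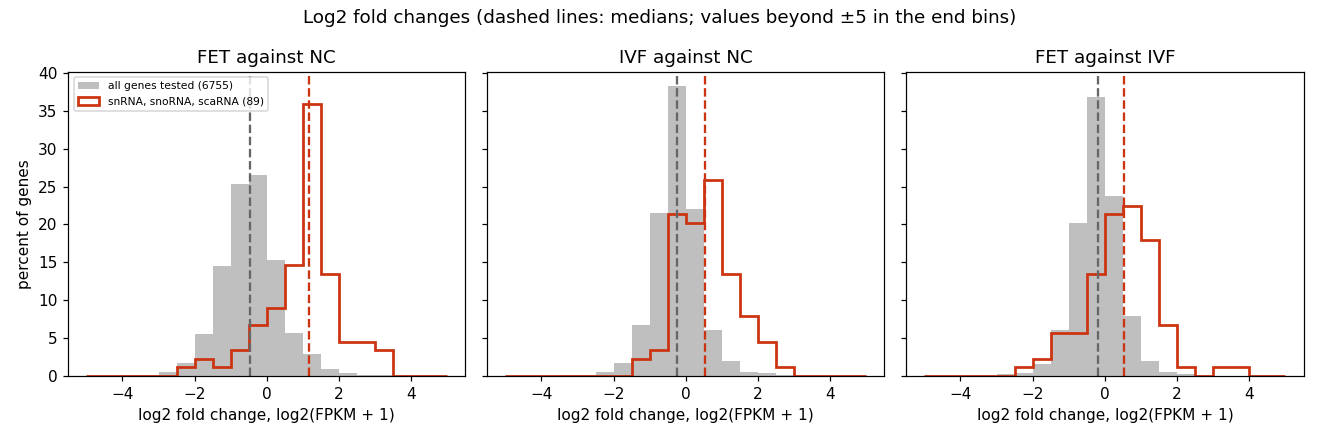
Distribution of the log2 fold change on the log2(FPKM + 1) scale (horizontal) as a percent of genes (vertical) for the 6755 genes tested (grey) and the 89 genes (red line) in the 3 comparisons, with dashed lines at the medians. In FET against NC the medians are -0.46 and 1.18, and the 89 genes were chosen partly by their FET values.

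In IVF against NC none of the 89 genes changed by limma, where 0.0592% of all genes tested did, and 13 had an unadjusted p-value under 0.05, where 4.07% of all genes had. The largest differences without overlap, none past the threshold, were 2.38 for Gm22813 (SE 0.67, adjusted p = 0.345 by limma), 2.29 for Gm23238 (adjusted p = 0.411), 2.13 for Gm22129 (adjusted p = 0.476), 1.57 for Snora68 (adjusted p = 1) and 0.52 for Gm24497 (adjusted p = 1). Gm22813 reached a mean of 1 only through the IVF mice, so that the values that chose it are those compared. Gm23472, the neighbour of Gm24497, was the only other gene of the 89 without overlap. These 6 were all higher in IVF, where 0.77% of all genes were higher without overlap. The median was 0.54 for the 89 genes and -0.25 for all genes.

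In FET against IVF, 2 of the 89 genes rose and none fell, where 0.0888% of all genes tested changed. Gm23732 rose by 3.59 (SE 0.76, adjusted p = 0.0273 by limma) and Gm23386 by 3.07 (SE 0.58, adjusted p = 0.0120 by limma). For Gm23732 the IVF mean was 0.483 ± 0.836 and the FET mean 15.9 ± 6.17 FPKM (SD, n = 3), and its call held without FET mouse 2 but was lost without FET mouse 3 (adjusted p = 0.719 by limma), FET mouse 4 (0.121), IVF mouse 2 (0.262), IVF mouse 3 (0.263) or IVF mouse 4 (0.481). Of 14 alternatives only leaving out FET mouse 2 kept the call of Gm23732, which was lost under all 3 rescalings (adjusted p = 0.239 to 0.254 by limma), both other pseudocounts (0.193 and 0.79), no filter (0.791), the fit of only these groups (0.482) and the replicate block (0.519). Gm23732 was also high in NC mouse 1, and its difference in FET against NC was 2.64 (adjusted p = 0.104 by limma), which turned to -0.10 with NC mouse 1 as the only NC mouse and passed without NC mouse 1, at 4.02 (adjusted p = 0.00363 by limma). The call of Gm23386, which here too rests on the values that chose the gene, held in 7 of 14 alternatives. It was lost without IVF mouse 2 (adjusted p = 0.0533 by limma) or IVF mouse 4 (0.205), with no filter (0.586), with both other pseudocounts (0.192 and 0.221), in the fit of only these groups (0.595) and with the replicate block (0.519). Rnu3b3 differed by 2.15 (adjusted p = 0.784 by limma), Rnu3b1 by 1.78 (adjusted p = 1) and Rnu3b4 by 1.59 (adjusted p = 1), all without overlap. In all, 13 of the 89 genes were higher in FET without overlap, where 1.27% of all genes were, and they included 7 copies of U1 and 4 of U3, whose members share sequence. The median was 0.52 for the 89 genes and -0.20 for all genes. FET against NC and FET against IVF share the FET mice, so that the rise of Gm23386 in both rests on the same 3 values.

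No tested gene for a protein that acts with these RNAs passed the threshold. Of a list of 118 genes for snoRNP and snRNP proteins and for the transcription, processing and export of snRNAs, all but 1 were in the table and 61 were tested by limma. At an unadjusted p-value under 0.05, 0 of these were higher and 5 lower in FET against NC, where 1.88% of all genes were higher and 10.1% lower, and the median log2 fold change was -0.57, where it was -0.46 for all genes. Fbl, the methyltransferase of C/D particles, had 1.05, 1.72 and 1.49 FPKM in the NC mice and 1.8, 1.12 and 0 in the FET mice. Dkc1, the pseudouridine synthase of H/ACA particles, had 0.0745, 0.692 and 0.633 in the NC mice and 1.21, 1.43 and 0 in the FET mice. Its mean over all mice was under 1, so that it was not among the genes tested.

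Of the other small non-coding RNAs, Rn7sk and Rn7s1 were lowest in NC mice 5 and 6. Rn7sk, the 7SK RNA that holds the elongation factor P-TEFb, had 178, 41.0 and 41.9 FPKM in NC mice 1, 5 and 6 and 105 to 264 in the other groups. Rn7s1, a 7SL RNA of the signal recognition particle, had 962, 105 and 119 in the NC mice and 740 to 2278 in the others. In both RNAs, as in the 3 ribosomal entries named above but not in Gm26917 and Gm42418, which were listed with them, NC mouse 1 lay within the range of the IVF and FET mice, and NC mice 5 and 6 lay below all other mice. The U1, U3, U6, other snRNA and scaRNA sums had NC mice 5 and 6 lowest too. This order did not hold for Rpph1, the RNA of ribonuclease P, which had 20.3 FPKM in NC mouse 6 against 12.3 in NC mouse 1 and 2.33 in FET mouse 4. Rmrp, the RNA of ribonuclease MRP, had 1.93 and 5.15 in NC mice 5 and 6 and 0 in FET mouse 4.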

How the data were processed

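Liver total RNA was isolated with TRIzol and sequenced on an Illumina Nova6000. The authors deposited FPKM values, 1 column per mouse, for 55335 genes. The submitters' processing notes name FastQC 0.11.5, STAR 2.5.3a, StringTie 1.3.1c and DESeq2 1.16.1, without their roles. The genome build, the annotation and the strandedness are not given in the sources used here. Here, 55154 identifiers matched GENCODE vM21. Families were formed with blastn 2.17.0. Depth was estimated from steps of up to 8 fragments in genes of at least 500 bases, with a tolerance of 1%, and tested on simulated data. Between 36.5% and 45.8% of low values fell on a step. Two-sided tests were made on log2(FPKM + 1) with limma 3.58.1 (R 4.3.3), with all 3 groups in 1 model and a variance trend. FPKM values are not counts, so no count test was run. Genes were mainly named as the 10 highest of each class, those above 0 in all 9 mice or those past the threshold. Up to 5 per comparison with the largest difference and no overlap were also named. Of the 10 highest snoRNA genes, Gm25857 and Gm24336 were not described, and Rnu3b2 was named after its values were seen. Some genes, among them Snord35a, Snord99, Snord17, Snora57 and Rnu3a, were named outside these rules. The members, lists and tests were chosen with earlier results of these data known. Alternatives were other pseudocounts, filters and scalings, fits of the groups compared, a replicate block, NC mouse 1 as the only NC mouse and leaving out each mouse. Some sequences and 1 host gene are not reported here.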

Additional observations from a re-analysis of the deposited data

How the results depend on the processing

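The direction of each named difference was kept under the alternatives run, except that Gm23732 in FET against NC turned from 2.64 to -0.10 with NC mouse 1 as the only NC mouse, while the calls were not kept. Among the 89 genes, the 2 calls in FET against NC became 1 with a pseudocount of 0.1 and 0 with a pseudocount of 10, with no filter, with a filter at a mean FPKM of 10, which neither gene passed, in a fit of only the groups compared and with NC mouse 1 as the only NC mouse. Under median-ratio scaling, quantile normalization and rescaling to nuclear protein-coding genes the count stayed at 2, but Rnu3b3 was lost and Gm24924 passed. Leaving out each mouse in turn gave 1 to 12 calls, the 12 without NC mouse 1 and 9 without FET mouse 2. The 2 calls in FET against IVF became 1 under median-ratio scaling, quantile normalization and rescaling to nuclear protein-coding genes, and 0 under both other pseudocounts, no filter, the filter at 10 and the fit of only the groups compared, with 0 to 3 calls when each mouse was left out. In IVF against NC the count stayed at 0. Over all genes, the 16 calls in FET against NC became 26 under median-ratio scaling, 5 with the filter at 10, 6 with NC mouse 1 alone and 0 with a pseudocount of 10, no filter or only the groups compared, with 1 to 83 when each mouse was left out. The 4 calls in IVF against NC became 2 with the filter at 10 or NC mouse 1 alone and 0 under the other settings, with 0 to 24 when each mouse was left out. The 6 calls in FET against IVF became 0 with a pseudocount of 10, no filter or only the groups compared, with 0 to 10 when each mouse was left out. The cause of these shifts was not tested. The median of all genes in FET against NC, -0.46 as deposited, was -0.14 under median-ratio scaling and -0.06 after rescaling to nuclear protein-coding genes, where the median of the 89 genes was 1.13 and 1.20. The IVF and FET mice share the numbers 2, 3 and 4. After removal of the group means, same-numbered mice had correlations of -0.13, 0.02 and -0.26, and differently numbered mice had -0.14 to 0.29. So few pairs cannot settle whether same-numbered mice share more than a number. With a replicate block, FET against IVF gave 2 calls over all genes and 0 among the 89. The median of 11.3 fragments per gene over all mice limits the precision of single values.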
